A study of Mus musculus with 3 samples.

Results

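In the fracture callus, a small set of cells carried UMIs of at least 3 of the genes *Chodl*, *Angptl7*, *Ptx4*, *Egfl6*, *Cilp2*, and *Thbs4*. At day 10, *Thbs4* was seen in 22.2% and *Cilp2* in 10.8% of all cells within the limits given next, and the other 4 genes in 1.06% to 2.14%. A unique molecular identifier (UMI) tags 1 captured mRNA molecule. The cells were chosen by these measured UMIs: a cell was selected when it held a UMI of at least 3 of the 6 genes, in the libraries of day 10 and day 14. Cells also needed 500 to 5000 genes, at most 10% mitochondrial UMIs, at most 5% hemoglobin UMIs, and no UMI of *Ptprc*, which encodes CD45. The selected cells numbered 144 of 6587 cells at day 10 (2.19%; 95% CI, 1.85% to 2.57%) and 79 of 9680 cells at day 14 (0.816%; 95% CI, 0.647% to 1.02%), or 223 of 16267 cells. Over the 3 days of the study 16714 cells were within these limits. The comparison group was the other cells within the limits that had at least 20 *Aspn* UMIs per 10000 UMIs, 1372 cells at day 10 and 3121 cells at day 14, here called other *Aspn*-high cells. *Aspn* encodes asporin, a small matrix proteoglycan, and is among the genes that the study used to name its *Postn*+ osteoprogenitors.

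The study set out to define the periosteal populations of the healing callus. It sampled the callus of C57BL/6 mice after femoral fracture, with no treatment, once each at day 7, day 10, and day 14. Muscle and marrow were cleaned away, the callus was digested with collagenase, live cells negative for CD45, CD31, and TER119 were sorted, and mRNA was captured in droplets. Each day gave 1 library, the labels do not say how many animals it holds, and the age of these mice is not given in the sources used here. A difference between days or between cell groups could therefore not be set against the spread between animals, and no test was possible. Intervals are exact, at 95%, and cover counting error only. Levels are CPM, the UMIs of a gene summed over the cells of a group and scaled to 1000000 UMIs, and ratios are log2 ratios of selected cells over other *Aspn*-high cells of the same library.

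Tendons and ligaments insert into bone through the periosteum and the enthesis, and the fibrous outer layer of the periosteum is continuous with them. Tendon fibroblasts are known for the transcription factors *Scx* and *Mkx* and for tenomodulin, the membrane glycoprotein encoded by *Tnmd*. The inner, cambium layer of the periosteum holds progenitor cells known for *Prrx1*, *Ctsk*, and *Postn*. Among the genes of the choice, *Thbs4* encodes thrombospondin 4, a matrix glycoprotein of tendon and muscle attachments. *Cilp2* encodes a cartilage intermediate layer protein, *Egfl6* a secreted matrix protein related to nephronectin, and *Angptl7* a secreted angiopoietin-like protein. *Chodl* encodes chondrolectin, a C-type lectin with a transmembrane segment, and *Ptx4* a member of the pentraxin family.

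The libraries held 144103160 UMIs in 8801 barcodes at day 10 and 195661880 UMIs in 12984 barcodes at day 14. Selected cells were shallower than other *Aspn*-high cells, with a median of 10228 against 15308 UMIs at day 10 and 13204 against 14357 UMIs at day 14. Median mitochondrial shares were close, 3.04% against 3.00% at day 10 and 2.92% against 2.76% at day 14. Libraries shared 29 to 42 barcodes with each other, and none of these belonged to a selected cell in both libraries. A further 12 cells at day 10 and 17 cells at day 14 met the choice but had more than 5000 genes and were left out. No doublet caller was run. The day 7 library was set apart because only 447 of its 7017 cells within the limits lacked a UMI of *Ptprc*.

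The working label of these cells, *Chodl* and *Angptl7* positive, held for few of them. *Chodl* was seen in 56 and *Angptl7* in 46 of the 144 cells at day 10, and 10 cells (6.94%) carried UMIs of both. At day 14, 20 cells had *Chodl*, 31 had *Angptl7*, and 12 of the 79 (15.2%) had both. The remainder, 52 cells at day 10 and 40 cells at day 14, had neither gene. *Thbs4* was seen in all 144 cells at day 10 and in 77 of 79 at day 14, and *Cilp2* in 135 and 76 cells, respectively. The commonest combination on both days was *Egfl6*, *Cilp2*, and *Thbs4* without the others, in 41 cells at day 10 and 27 cells at day 14. Next at day 10 came *Chodl*, *Ptx4*, *Cilp2*, and *Thbs4* together, in 24 cells, and then *Angptl7*, *Egfl6*, *Cilp2*, and *Thbs4*, in 20 cells. For this reason the cells are called selected cells below and not by the label.

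The label's 2 genes lie on different chromosomes of GRCm38, *Chodl* at chr16:78930948-78951733 (+ strand) and *Angptl7* at chr4:148495183-148500460 (- strand), in the positions of the GENCODE M21 annotation. *Ptx4* lies at chr17:25120760-25125292, *Egfl6* at chrX:166523007-166585720, *Cilp2* at chr8:69880369-69887687, and *Thbs4* at chr13:92751590-92794818. Their promoters are shown to let a reader see what the label's genes do and do not share upstream, beside that of *Tnmd*, a tendon gene outside the choice. Each run holds the 250 bases before the RefSeq transcript start in GRCm38.p6, from chr16:78930698-78930947 (+ strand), chr4:148500463-148500712 (- strand), and chrX:133850758-133851007 (+ strand), and the capitals mark E-boxes. An E-box is the letters CANNTG on either strand, the core that basic helix-loop-helix factors, a family that includes the product of *Scx*, recognize.
Chodl: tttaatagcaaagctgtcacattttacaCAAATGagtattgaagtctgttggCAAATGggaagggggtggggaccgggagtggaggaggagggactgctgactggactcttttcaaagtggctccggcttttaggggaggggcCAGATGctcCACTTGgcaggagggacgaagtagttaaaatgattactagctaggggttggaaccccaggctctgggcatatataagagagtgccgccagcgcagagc
Angptl7: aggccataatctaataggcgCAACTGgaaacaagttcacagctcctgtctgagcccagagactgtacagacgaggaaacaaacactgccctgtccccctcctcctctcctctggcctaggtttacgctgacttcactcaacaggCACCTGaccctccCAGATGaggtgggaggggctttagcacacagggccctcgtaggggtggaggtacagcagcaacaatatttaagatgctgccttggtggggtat
Tnmd: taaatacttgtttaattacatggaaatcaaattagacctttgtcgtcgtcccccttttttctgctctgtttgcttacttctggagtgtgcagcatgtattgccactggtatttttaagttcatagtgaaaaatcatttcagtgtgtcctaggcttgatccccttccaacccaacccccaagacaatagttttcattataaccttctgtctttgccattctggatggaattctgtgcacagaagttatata

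The *Chodl* window held 4 E-boxes, the *Angptl7* window 3, and the *Tnmd* window none. Of 32851 RefSeq promoter windows of this length, 66.2% held at least 1 E-box. The form CATCTG, which reads CAGATG on the other strand and is one of the E-boxes already counted, occurred once each before *Chodl*, *Angptl7*, and *Egfl6* and in 14.4% of all windows. These are matches of letters only. For *Cilp2* and *Thbs4* the window held 1 E-box, and *Cilp2*'s RefSeq start lies 295 bases away from the GENCODE start. *Ptx4*, *Scx*, and *Col22a1* had no entry in the promoter table.

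Levels of the 6 genes describe the choice and test nothing. *Thbs4* was at 2633 CPM (95% CI, 2554 to 2714) in selected cells of day 10, against 164 CPM in other *Aspn*-high cells, and at 1151 CPM (95% CI, 1087 to 1217) in those of day 14, against 180.5 CPM. *Cilp2* was at 701 and 433 CPM, against 24.3 and 33.9 CPM. *Chodl* was at 277 CPM (95% CI, 252 to 304) and 74.9 CPM (95% CI, 59.3 to 93.4), against 0.569 and 0.158 CPM. *Angptl7* was at 182 and then 164 CPM, *Ptx4* at 143 and 48.4 CPM, and *Egfl6* at 221 and 105 CPM, all with at most 3.08 CPM in other *Aspn*-high cells. Per cell, *Thbs4* ran from 0.544 to 239.7 UMIs per 10000 at day 10 with a median of 17.7, and the highest other *Aspn*-high cell had 77.4.

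**Figure D1:**
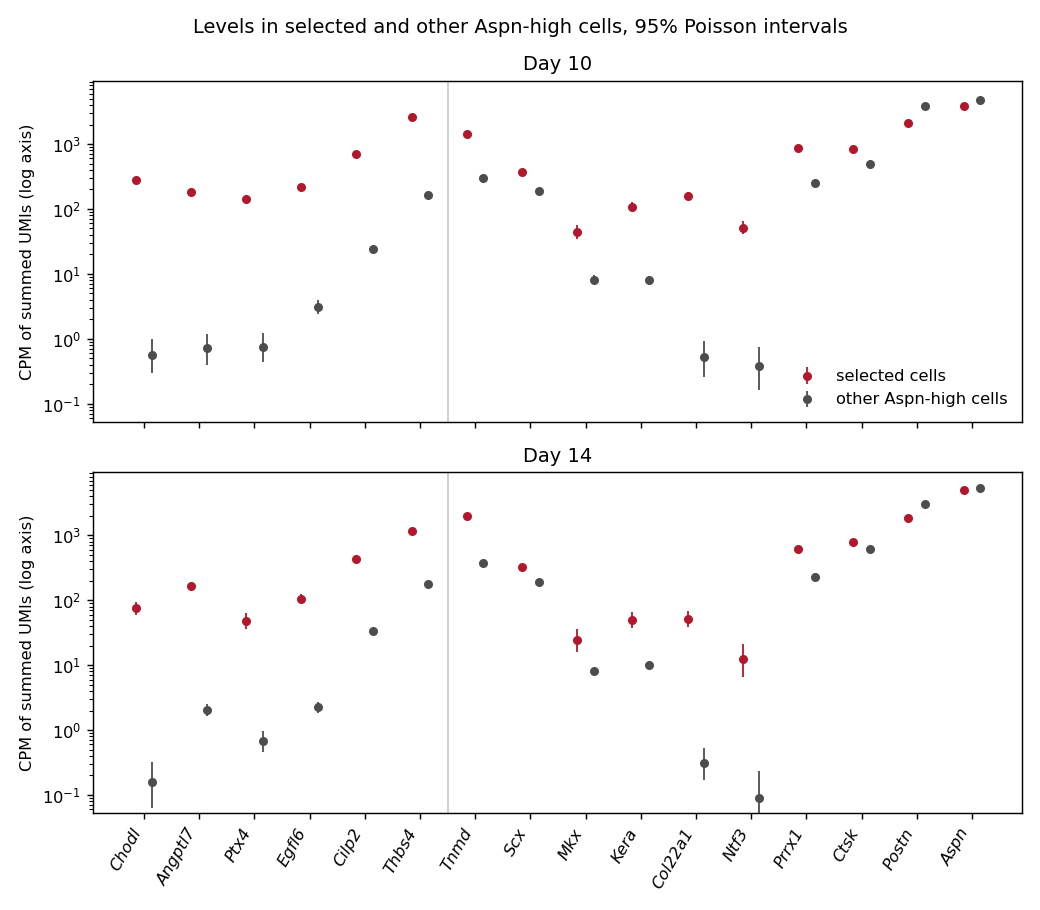
CPM on a log axis of the 6 genes of the choice (left of the gray line) and 10 other genes in selected cells (red) and other *Aspn*-high cells (gray), by day; bars are exact 95% Poisson intervals. *Tnmd* stood at 1447 and 1963 CPM in selected cells and *Postn* was lower there than in other *Aspn*-high cells on both days.

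Over all cells within the limits, whether selected or not, the 6 genes did not pair evenly. *Chodl* went with *Ptx4* in 38 of the 70 cells with *Chodl* (54.3%; 95% CI, 41.9% to 66.3%) at day 10, whereas 1.23% of all cells had *Ptx4*. *Thbs4* was seen in 64 of the 70 cells with *Chodl* (91.4%; 95% CI, 82.3% to 96.8%) and in 114 of the 141 cells with *Egfl6* (80.9%; 95% CI, 73.4% to 87%), against 22.2% of all cells. *Chodl* and *Angptl7* shared 10 of the 70 cells with *Chodl* (14.3%; 95% CI, 7.07% to 24.7%) at day 10 and 12 of the 24 cells with *Chodl* (50%; 95% CI, 29.1% to 70.9%) at day 14. *Ptx4* was seen in 11 of the 141 cells with *Egfl6* (7.80%; 95% CI, 3.96% to 13.5%) at day 10. All cells of a day share 1 library, and deeper cells show more genes of any kind, so these shares describe the libraries only.

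**Figure D2:**
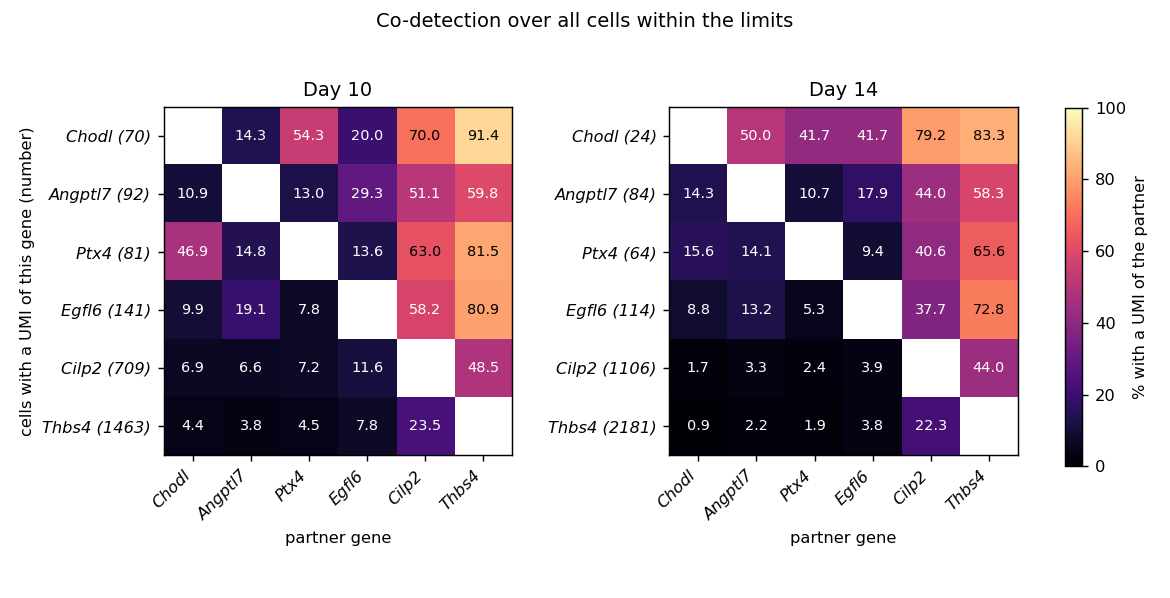
Share of the cells with a UMI of the row gene (number in parentheses) that also had a UMI of the column gene, over all cells within the limits at day 10 and day 14. *Chodl* with *Thbs4* stood at 91.4% at day 10 and 83.3% at day 14, and *Chodl* with *Angptl7* at 14.3% and 50%.

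Most callus cells had none of the 6 genes, 4682 cells at day 10 and 6804 at day 14. Cells just outside the choice, with 2 of the 6 genes, numbered 276 and 502, and cells just inside it, with 3, numbered 72 and 56. *Tnmd* was at 544 CPM with 2 genes, 1044 CPM with 3, and 1933 CPM with 4 or more at day 10. The same steps at day 14 were 708, 1898, and 2211 CPM. *Mfap4* stood at 223, 1233, and 1785 CPM at day 10, and *Col22a1* at 2.17, 34.6, and 313 CPM. *Col2a1*, the main cartilage collagen, was at 16574, 4149.8, and 788 CPM at day 10. Of the cells with 2 genes at day 10, 144 also had at least 20 *Aspn* UMIs per 10000. They lay nearer to the cells with 3 than all cells with 2 genes did in *Col2a1* (4283 CPM), *Tnmd* (871 CPM), and *Mfap4* (368 CPM). In *Mfap4* they were still far below the 1233 CPM of the cells with 3. In *Col22a1*, at 0.914 CPM, they were no nearer.

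Selected cells and other *Aspn*-high cells differed by at least 2-fold in many genes, counted among genes with a mean of at least 10 CPM over the groups. The counts of higher genes include the 6 genes of the choice, all of them higher on both days. At day 10, 641 of 8047 genes (7.97%) were at least 2-fold higher in selected cells and 273 (3.39%) at least 2-fold lower. At day 14, 213 of 7799 genes (2.73%) were higher and 123 (1.58%) lower. Of the 7523 genes above the floor on both days, 166 were higher on both, which is 34.4% of those higher at day 10 and 86.5% of those higher at day 14. The genes lower on both days were 50, or 19.6% and 44.6%, respectively. *Aqp5*, a water channel gene chosen after its values were seen, was the 1 gene past 2-fold in opposite directions. The day 14 library has fewer selected cells, so its counts of genes past 2-fold carry more counting error.

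**Figure D3:**
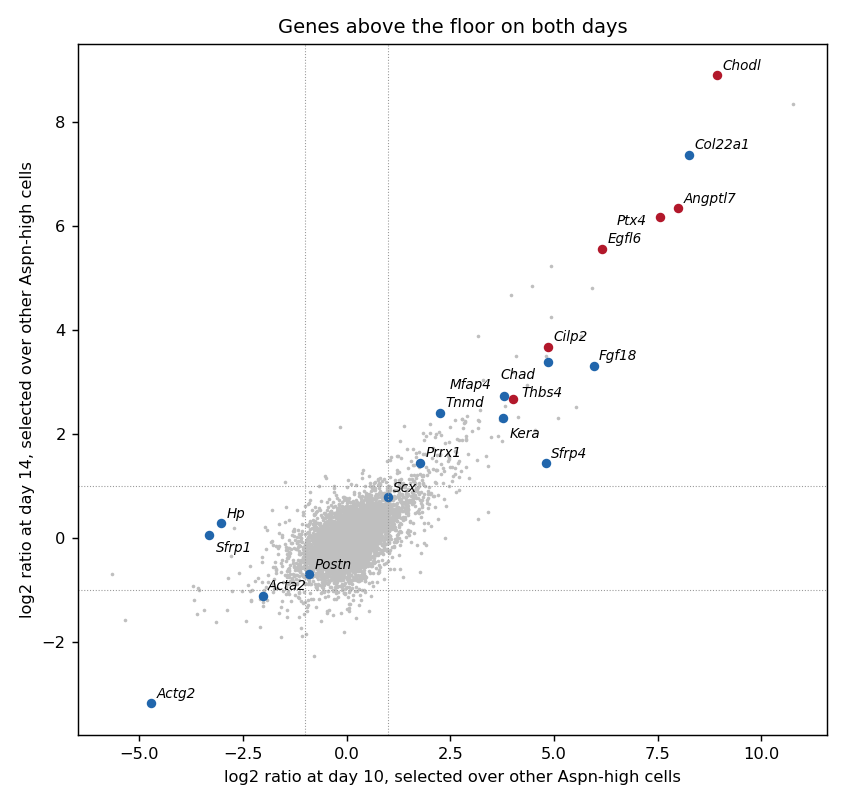
Log2 ratio of selected over other *Aspn*-high cells at day 10 (horizontal) and day 14 (vertical) for the genes above the floor on both days with UMIs in both cell groups; red points are the 6 genes of the choice, blue points other named genes, and dotted lines mark a 2-fold difference. *Col22a1*, at 8.27 and 7.37, lies among the genes of the choice, and *Sfrp1* and *Hp* are low at day 10 only.

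Several tendon genes stood higher in selected cells, and *Tnc* stood lower. Tenomodulin mRNA (*Tnmd*) was at 1447 CPM (95% CI, 1389 to 1508) in selected cells and 302 CPM (95% CI, 295 to 309.9) in other *Aspn*-high cells at day 10, a log2 ratio of 2.26 (95% CI, 2.19 to 2.33). At day 14 it was at 1963 CPM (95% CI, 1879.8 to 2049.9) against 371 CPM (95% CI, 366 to 377), a log2 ratio of 2.40 (95% CI, 2.34 to 2.47). Its level per cell overlapped between the groups: at day 10 it ran from 0 to 91.4 UMIs per 10000 in selected cells with a median of 10.6, and from 0 to 71.5 in other *Aspn*-high cells with a median of 0. With each cell thinned to 5000 UMIs, which 134 selected cells, 1333 other *Aspn*-high cells, and 436 hypertrophic cells (at least 100 *Col10a1* UMIs per 10000) reached, *Tnmd* was seen in 89.6%, 31.2%, and 1.15% of them. Unthinned, it was seen in 138 of 144 selected cells. The share in hypertrophic cells, whose median depth was 17665.5 UMIs, is given as that of a cell type that should lack the gene.

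*Scx*, the scleraxis gene that marks tendon progenitors, was at 375 CPM (95% CI, 345 to 406) against 188 CPM at day 10 and 322 CPM (95% CI, 288 to 358) against 188 CPM at day 14. Its log2 ratios were 0.99 (95% CI, 0.87 to 1.12) and 0.77 (95% CI, 0.61 to 0.93), both under 2-fold, and the groups overlapped widely, with medians per cell of 1.70 and 0.792 UMIs per 10000 at day 10. *Mkx*, which encodes the tendon factor mohawk, showed the larger ratio, at 44.1 against 8.15 CPM at day 10 and 24.7 against 8.23 CPM at day 14. Of the 10 tendon transcription factor genes, 9 were above the floor at day 10, and 5 were at least 2-fold higher and none lower, beside 7.97% and 3.39% of all genes. At day 14, 1 of 8 was higher and none lower, beside 2.73% and 1.58% of all genes. The immediate-early gene *Egr1* (log2 ratio, 1.64 at day 10 and 0.60 at day 14) and *Egr2* (1.89 and 0.99) were among the 5, and both also respond to tissue handling in general. *Egr1* was also seen in 83.3% of the thinned hypertrophic cells. *Nfix* (1.34 and 0.69) and *Eya1* (1.94 and 3.51) completed the group at day 10, and *Eya1* was below the floor at day 14.

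The 16 tendon matrix genes split. At day 10, 6 were at least 2-fold higher and 1 lower, with a median log2 ratio of 0.30, beside 0.028 over all genes, and at day 14, 4 were higher and 1 lower, with a median of 0.49, beside -0.029 over all genes. Of all genes, 7.97% were higher and 3.39% lower at day 10, and 2.73% and 1.58% at day 14. The day 10 median changed sign in 4 of the other ways of choosing or weighting the cells, to between -0.21 and -0.10. Among these, asking for 4 of the 6 genes and leaving out *Thbs4* gave the same cells. *Cilp* encodes a cartilage intermediate layer protein of tendon and joint tissue and was at 537 against 37.8 CPM at day 10 and 322 against 55.6 CPM at day 14. *Kera*, the keratocan gene, was at 108 against 7.96 CPM and 50.3 against 10.2 CPM, but only 29 and 15 selected cells had a UMI of it. *Prg4*, which encodes the joint lubricant lubricin, was at 179 against 28.8 CPM and 63.6 against 20.3 CPM, with a day 14 log2 ratio of -0.053 when 2 of the 6 genes were asked for. The fibril-associated proteoglycan genes *Fmod* (log2 ratio, 1.26 and 0.83) and *Dcn* (1.06 and 0.76) were past 2-fold at day 10 only. *Comp*, the cartilage oligomeric matrix protein gene and a relative of *Thbs4*, was at 2701 against 2590.5 CPM at day 10 and 2856 against 2157 CPM at day 14. *Tnc*, which encodes tenascin C, was the lower gene on both days, at 291 against 598 CPM and 178 against 492 CPM, but against all other cells its day 10 log2 ratio was 0.25.

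Other *Aspn*-high cells that also held a UMI of *Scx* were compared as well, 849 cells at day 10 and 1959 at day 14, an alternative chosen after seeing the data. Against them the log2 ratio of *Tnmd* was 2.08 (95% CI, 2.01 to 2.15) at day 10 and 2.19 (95% CI, 2.12 to 2.25) at day 14. That of *Mkx* was 2.46 (95% CI, 2.00 to 2.90) and 1.54 (95% CI, 0.90 to 2.12), and that of *Cilp* 3.71 (95% CI, 3.56 to 3.87) and 2.47 (95% CI, 2.29 to 2.63). At day 10 those of *Kera* (3.32), *Prg4* (2.37), *Fmod* (1.25), and *Dcn* (1.18) were past 2-fold too. So were those of *Eya1* (2.13), *Egr2* (2.07), *Egr1* (1.75), *Nfix* (1.40), and *Eya2* (1.03). The following ratios were small or below 0. The selected cells were not asked for a UMI of *Scx*. Asking for it in the comparison cells only put these at 285 CPM of *Scx* at day 10 and so lowered its ratio. *Scx* itself was at 0.40 and 0.20, *Tnc* at -1.12 and -1.52, *Thbs2* at -0.80 and -0.29, *Col12a1* at -0.72 and -0.48, *Lum* at -0.68 and -0.38, and *Htra1* at -0.46 and -0.31.

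Among genes with a mean of at least 50 CPM, those outside the choice with the largest ratios at day 10 were *Col22a1*, *Cyp26a1*, *Fgf18*, *Itih5*, *Dio2*, *F2r*, *Chad*, *Cxcl14*, *Sfrp4*, and *Ccn3*. *Col22a1*, a collagen gene known from the junction of muscle and tendon (chr15:71795795-72034227), was at 161 CPM (95% CI, 141 to 182) against 0.521 CPM at day 10 and 52.2 CPM (95% CI, 39.3 to 67.9) against 0.316 CPM at day 14. A UMI of it was seen in 29 of 144 and 8 of 79 selected cells, and 1 cell held 36.4% of the day 14 UMIs. *Cyp26a1*, which encodes an enzyme that breaks down retinoic acid, was at 103 against 0.995 CPM at day 10, in 29 cells, and at 11.4 against 0.0902 CPM at day 14, in 5 cells. *Dio2*, the deiodinase that activates thyroid hormone, stood at 128 against 2.80 CPM and 28.5 against 5 CPM. *Fgf18*, a growth factor of cartilage and bone, was at 106 against 1.71 CPM at day 10 with a log2 ratio of 5.96 (95% CI, 5.43 to 6.52) and 27.5 against 2.77 CPM at day 14 with a log2 ratio of 3.31 (95% CI, 2.67 to 3.90). *F2r*, the thrombin receptor gene, was seen in 79 and 26 selected cells, with log2 ratios of 4.92 and 4.25.

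*Itih5*, of the family that binds hyaluronan, was at 103 against 1.71 CPM at day 10 and 22.8 against 0.811 CPM at day 14, and *Cxcl14*, a chemokine gene, at 211 against 7.53 CPM and 75.9 against 6.74 CPM. *Ccn3*, which encodes a matricellular protein, had log2 ratios of 4.55 and 2.07. *Chad*, the chondroadherin gene, was at 991 CPM (95% CI, 942 to 1041) against 34.3 CPM at day 10 and 448 CPM (95% CI, 408 to 490.0) against 43.2 CPM at day 14, where its log2 ratio against all other cells was -0.24. It is also a cartilage gene: 85.1% of the thinned hypertrophic cells had a UMI of it, against 69.4% of selected cells and 10.4% of other *Aspn*-high cells.

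Small leucine-rich proteoglycans organize collagen fibrils. Of the 7 such genes above the floor, 4 were at least 2-fold higher at day 10 and 3 at day 14, beside 7.97% and 2.73% of all genes. None was lower, beside 3.39% and 1.58% of all genes, so for 7 genes this lies near the share of all genes. Besides *Chad*, *Omd* (osteomodulin) was at 625 against 208 CPM and 391 against 148 CPM, and *Prelp* at 336 against 75.1 CPM and 229 against 111 CPM. *Aspn* itself, which set the comparison group, was at 3879 against 4844 CPM at day 10 and 5036 against 5398 CPM at day 14. *Ogn*, named with *Aspn* for the *Postn*+ osteoprogenitors, was at 2238 against 1514 CPM and 2912 against 1472 CPM.

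Elastic fibers are built from elastin on a scaffold of fibrillins and fibulins. Of 13 genes above the floor, 6 were at least 2-fold higher at day 10 and 5 at day 14, beside 7.97% and 2.73% of all genes. None was lower, beside 3.39% and 1.58% of all genes, so for 13 genes this lies near the share of all genes. *Eln*, the elastin gene, was at 564 against 34.9 CPM and 188 against 20.5 CPM, in 59 and 27 selected cells. *Mfap4*, which encodes a protein of the surrounding microfibrils, was at 1483 CPM (95% CI, 1424 to 1544) against 107 CPM at day 10 and 1173 CPM (95% CI, 1109 to 1241) against 178 CPM at day 14, and 136 of the 144 selected cells had a UMI of it. *Fbln1* (log2 ratio, 2.61 and 1.68), *Fbln5* (1.48 and 1.34), and *Ltbp2* (2.48 and 1.51) were higher on both days, except that *Fbln1* was at -0.092 at day 14 with 2 of the 6 genes asked for. *Fbn2*, the fibrillin gene of developing tissue, was at 156 against 267 CPM at day 10.

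Collagen genes of the common fibrils did not follow. Of 14 collagen genes, 4 were at least 2-fold higher and 2 lower at day 10, and 2 were higher and 1 lower at day 14, beside 7.97% and 3.39% of all genes at day 10 and 2.73% and 1.58% at day 14. *Col1a1* was at 14512 against 19362 CPM at day 10 and 18437 against 18544 CPM at day 14, and *Col3a1* at 8359 against 13962 CPM and 9952 against 13517 CPM. *Col6a3*, of the beaded filaments around cells, was lower on both days (log2 ratio, -1.14 and -1.17). *Col8a1*, a network-forming collagen gene, was higher on both, at 2593 against 517 CPM and 1043 against 501 CPM, but with 2 of the 6 genes asked for its day 14 log2 ratio was -0.15.

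**Figure D4:**
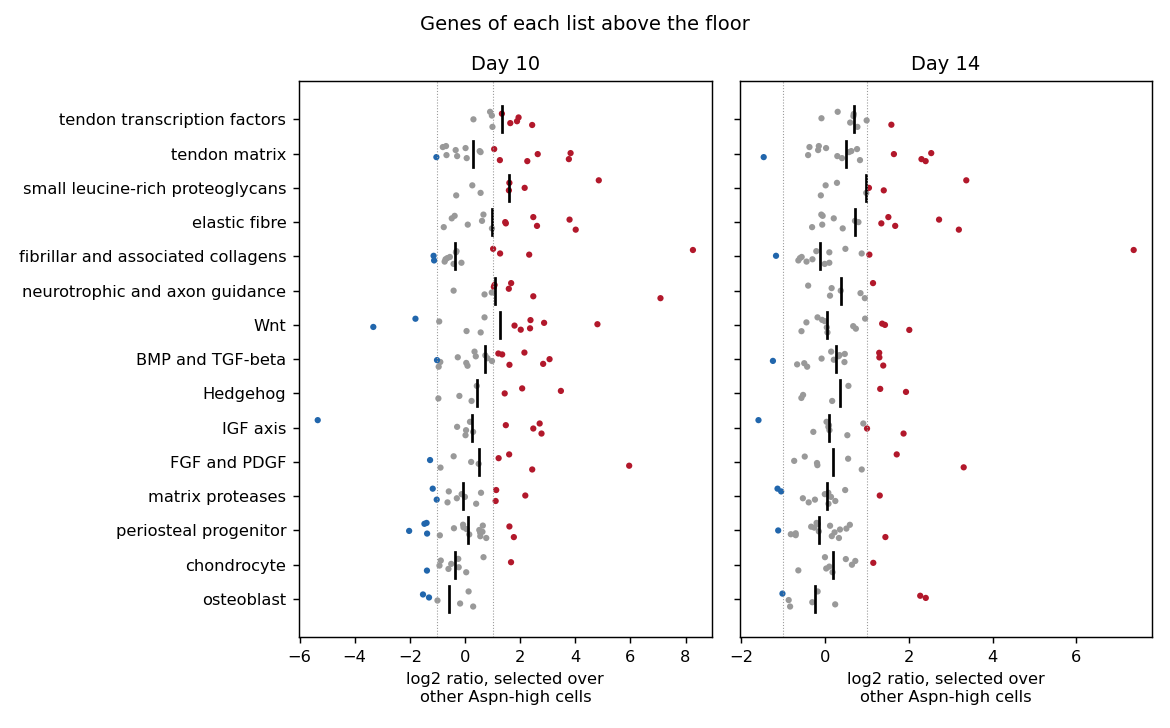
Log2 ratio of selected over other *Aspn*-high cells for the genes of 15 lists that were above the floor, at day 10 and day 14; each point is a gene, red at least 2-fold higher, blue at least 2-fold lower, and the black bar is the list's median. Elastic fiber genes and small leucine-rich proteoglycans held genes at least 2-fold higher on both days, and periosteal progenitor genes lay on both sides of 0.

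Signaling genes differed by family and by member. Of 9 neurotrophic and axon guidance genes above the floor at day 10, 6 were at least 2-fold higher and none lower, beside 7.97% and 3.39% of all genes. At day 14, 1 of 7 was higher and none lower, beside 2.73% and 1.58% of all genes. *Ntf3*, which encodes neurotrophin 3 (chr6:126101412-126166910), was at 51.6 CPM (95% CI, 41.1 to 64.1) against 0.379 CPM at day 10, in 42 of 144 selected cells, a log2 ratio of 7.09 (95% CI, 6.04 to 8.35). At day 14 it was at 12.3 CPM (95% CI, 6.57 to 21.1) against 0.0902 CPM, below the floor. *Bdnf* was at 34.0 against 6.11 CPM at day 10, in 15 selected cells, and *Gas6*, a ligand of TAM receptors, at 394 against 124 CPM at day 10 and 445 against 201 CPM at day 14, where its log2 ratio was -0.19 with 2 of the 6 genes asked for. *Ptn*, the pleiotrophin gene and a further mark of the *Postn*+ osteoprogenitors, was just under 2-fold on both days (log2 ratio, 0.97 and 0.95).

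Among 12 Wnt pathway genes at day 10, 6 were at least 2-fold higher and 2 lower, and at day 14, 3 of 13 were higher and none lower, beside 7.97% and 3.39% of all genes at day 10 and 2.73% and 1.58% at day 14. The ligand gene *Wnt16* was at 95.7 against 23.6 CPM at day 10 and 67.3 against 16.7 CPM at day 14. Among the secreted inhibitors, *Sfrp4* was at 385 against 13.8 CPM and 34.1 against 12.7 CPM (day 14 log2 ratio, -0.57 with 2 of the 6 genes asked for), and *Sfrp2* at 404 against 116 CPM and 295 against 185 CPM. *Sfrp1* was at 10.7 against 108 CPM at day 10 and 79.7 against 77.4 CPM at day 14. *Dkk2* was at 24.6 against 3.36 CPM at day 10 and 19.0 against 7.37 CPM at day 14.

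Of the 17 BMP and TGF-beta genes above the floor at day 10, 6 were at least 2-fold higher and 1 lower, and at day 14, 3 of 14 were higher and 1 lower, beside 7.97% and 3.39% of all genes at day 10 and 2.73% and 1.58% at day 14. The higher genes included *Bmp5* (59.2 against 19.4 CPM at day 10 and 31.3 against 11.9 CPM at day 14) and the coreceptor gene *Tgfbr3* (92.0 against 20.7 CPM and 56.9 against 23.2 CPM). *Inhba*, the activin A subunit gene, was the lower one on both days, at 204 against 413 CPM and 116 against 274 CPM. In the hedgehog list, the coreceptor genes *Gas1* (807 against 72.5 CPM and 409 against 107 CPM) and *Boc* (78.7 against 18.7 CPM and 41.7 against 16.7 CPM) were higher on both days, and the target gene *Ptch1* was at 61.7 against 121 CPM and 77.8 against 115 CPM.

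Insulin-like growth factor genes also parted. *Igf1*, a growth factor gene of bone and muscle repair, was at 1006 against 995 CPM at day 10 and 1718 against 1188 CPM at day 14, less than 2-fold apart. *Igf2* was at 343 against 50.2 CPM and 132 against 36.0 CPM. The binding protein gene *Igfbp6* was at 1255 against 192 CPM and 748 against 397 CPM, and *Igfbp3* at 283 against 50.9 CPM and 129.9 against 64.9 CPM. In all, 4 of the 10 genes of this axis above the floor were higher and 1 lower at day 10, and 2 were higher and 1 lower at day 14, beside 7.97% and 3.39% of all genes at day 10 and 2.73% and 1.58% at day 14. The lower gene was *Pappa*, which encodes a protease that cleaves IGF binding proteins, at 0.630 against 25.6 CPM at day 10, from 1 UMI, and 9.49 against 28.5 CPM at day 14.

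Of 18 periosteal progenitor genes above the floor at day 10, 2 were at least 2-fold higher and 4 lower, and of 17 at day 14, 1 was higher and 1 lower. The shares of all genes were 7.97% higher and 3.39% lower at day 10, and 2.73% and 1.58% at day 14. The share higher at day 10 was thus near that of all genes. *Prrx1*, a transcription factor gene of limb mesenchyme, was at 859.7 CPM (95% CI, 815 to 907) against 252 CPM at day 10 and 621 CPM (95% CI, 575 to 671) against 229 CPM at day 14, with log2 ratios of 1.77 and 1.44. *Ctsk*, the cathepsin K gene that names a periosteal stem cell population, was at 853 against 500.5 CPM at day 10 and 782 against 621 CPM at day 14. *Postn*, the periostin gene, was at 2078 CPM (95% CI, 2008 to 2151) against 3915 CPM (95% CI, 3888 to 3942) at day 10, and in the later library it was at 1884 CPM (95% CI, 1802 to 1968) against 3062 CPM (95% CI, 3045 to 3078). Its medians per cell were 13.1 against 28.4 UMIs per 10000 at day 10 and 14.9 against 21.9 at day 14, and the groups overlapped. *Acta2*, the smooth muscle actin gene, was at least 2-fold lower on both days, at 196 against 799 CPM and 245 against 531 CPM. *Cxcl12* was at 32.8 against 86.1 CPM and *Ly6a*, which encodes SCA1, at 52.9 against 137 CPM at day 10, and at 109 against 125 CPM and 136 against 220.4 CPM at day 14. Against all other cells the day 10 log2 ratio of *Ly6a* was 0.020. *Grem1* was the other higher gene at day 10, at 67.4 against 22.1 CPM.

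The 10 genes with the lowest ratios at day 10, among those with a mean of at least 50 CPM, were *Actg2*, *Sfrp1*, *Hp*, *Ptx3*, *Sbsn*, *Adam12*, *Lrrc17*, *Vcan*, *Tgfbi*, and *Fabp5*. *Actg2*, a smooth muscle actin gene, was at 3.78 against 99.3 CPM at day 10 and 10.4 against 95.1 CPM at day 14, with log2 ratios of -4.72 (95% CI, -6.16 to -3.59) and -3.19 (95% CI, -4.19 to -2.35). *Tgfbi*, which encodes a matrix adhesion protein induced by TGF-beta, was at 95.1 against 407 CPM and 126 against 416 CPM, and *Vcan*, the versican gene of provisional matrix, at 52.9 against 259 CPM and 121 against 243 CPM, with a day 14 log2 ratio of 0.21 against all other cells. *Hp*, the haptoglobin gene, was at 27.7 against 226 CPM at day 10 and 333 against 274 CPM at day 14. *Ptx3*, of the same family as *Ptx4*, was at 23.3 against 152 CPM and 131 against 116 CPM. So *Sfrp1*, *Hp*, and *Ptx3* were lower at day 10 and less than 2-fold apart at day 14, and whether the days differ was not tested.

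Markers of other cell types were mostly sparse. Blood vessel, blood, and muscle lists had no gene above the floor at day 10: their summed levels in selected and other *Aspn*-high cells were 18.9 and 5.5 CPM for 7 endothelial genes, 15.7 and 10.8 CPM for 9 hematopoietic genes, and 7.56 and 13.5 CPM for 7 skeletal muscle genes. Of these lists, 4, 3, and 3 genes were at 0 in selected cells, among them *Myod1* and *Pax7*, the defining genes of muscle precursors. Most endothelial UMIs of selected cells at day 10 were of *Cdh5*, 19 UMIs in 7 cells. At day 14 the summed levels were 6.64 and 7.57, 44.6 and 199.6, and 15.2 and 12.1 CPM, and 3 hematopoietic genes were above the floor, of which *S100a8* and *S100a9*, neutrophil genes, were at least 2-fold lower in selected cells, whereas with only 2 of the 6 genes asked for their log2 ratios were 2.57 and 2.25. Schwann cell genes summed to 57.3 and 47.7 CPM at day 10 and 42.7 and 36.7 CPM at day 14, and *Sox10* was at 0 in selected cells on both days. *Cnp*, a myelin gene that other cells also use, was at 19.0 against 9.20 CPM at day 14, the 1 Schwann cell gene past 2-fold. The pericyte gene *Rgs5* had no UMI in selected cells at day 10, and 7 pericyte genes summed to 76.8 against 111 CPM there and 42.7 against 116 CPM at day 14, where *Rgs5* was at 2.85 against 32.9 CPM. Cycling genes summed to 78.7 against 134 CPM at day 10 and 72.1 against 67.8 CPM at day 14, with *Cdk1* and *Birc5* at least 2-fold lower at day 10 and *Ccnb2* higher at day 14, where 1 cell held 59.1% of its UMIs. *Cdk1* was at a log2 ratio of 0.14 with 2 of the 6 genes asked for, and *Ccnb2* at -0.91 after thinning.

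A few selected cells held most UMIs of the cartilage gene *Col2a1* and the bone gene *Ibsp*. Most selected cells had some: *Col2a1* was seen in 142 of 144 and all 79 cells, and *Ibsp* in 111 and 67. *Col2a1* was at 2625 against 2548 CPM at day 10 and 1486 against 1312 CPM at day 14, and it reached 20 UMIs per 10000 in 10 and 7 selected cells, which held 82.4% and 72.8% of its UMIs. *Ibsp*, the bone sialoprotein gene, lay at the 2-fold limit at day 10, at 1363 against 2726 CPM, and was at 1841 against 2273 CPM at day 14, and 4 and 5 selected cells past the same limit held 86.6% and 91.3% of its UMIs. At day 10, 6.94% of selected and 21.1% of other *Aspn*-high cells reached that limit for *Col2a1*, and 2.78% and 20.2% for *Ibsp*. At day 14 the shares were 8.86% and 9.61% for *Col2a1* and 6.33% and 17.6% for *Ibsp*. Without the cells high in *Col2a1*, in both groups, 712 genes were at least 2-fold higher and 336 lower at day 10, and 246 and 134 at day 14. *Acan*, the aggrecan gene, was at 578 against 1507 CPM at day 10 and 748 against 1164 CPM at day 14, and *Sox9*, the chondrogenic factor gene, at 115 against 320.0 CPM and 188 against 212 CPM. With 2 of the 6 genes asked for, their day 10 log2 ratios were 0.54 and 0.075. The part of mixed droplets in these values was not tested.

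The selected cells were not alike. They were divided by the label's genes into cells with *Chodl* (56 at day 10 and 20 at day 14), cells with *Angptl7* and no *Chodl* (36 and 19), and cells with neither (52 and 40), with median UMIs of 8347.5, 11209, and 11401 at day 10. Genes were ranked by the ratio of *Chodl* cells over the other selected cells at day 10, so these ratios are a description. *Chodl* cells carried *Ptx4* at 377 CPM, against 37.9 CPM in *Angptl7* cells and 24.7 CPM in cells with neither. *Thbs4* was at 5235, 1782, and 1112 CPM, and *Egfl6* ran the other way, at 81.2, 265, and 304 CPM. The choice itself sets part of this contrast. Cells with neither label gene could meet it only through *Ptx4*, *Egfl6*, *Cilp2*, and *Thbs4*. At day 10, *Egfl6* was seen in 44 of the 52 cells with neither and in 14 of the 56 *Chodl* cells. Levels of the choice's genes across these subsets therefore describe the choice and test nothing.

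Outside the choice, *Col22a1* was mostly in *Chodl* cells at day 10, at 487 CPM against 2.80 CPM in the other selected cells, and 26 of its 29 positive cells had *Chodl*. At day 14 it was at 281 against 2.31 CPM, in 7 of 8 cells. *Itih5* was at 313 against 1.87 CPM at day 10, and its day 14 UMIs were all in *Chodl* cells. Tendon genes leaned the same way: *Scx* was at 779 against 179 CPM at day 10, a log2 ratio of 2.12 (95% CI, 1.87 to 2.37), and at 605 against 259.8 CPM at day 14, a log2 ratio of 1.22 (95% CI, 0.88 to 1.55). *Tnmd* was at 2293 against 1039 CPM and 3138 against 1708 CPM. *Cilp* was at 1133 against 248 CPM at day 10 and 1051 against 164 CPM at day 14. *Sparcl1*, which encodes a SPARC-like matrix protein, was at 634 against 50.4 CPM at day 10 and 271 against 25.4 CPM at day 14. *Postn* was at 3176 CPM in *Chodl* cells against 1548 CPM in the other selected cells at day 10. At day 14 it was at 1816 against 1898 CPM. *Reg3g* had the largest ratio at day 10, but 1 cell held 83.7% of its UMIs, and it had no UMI in selected cells at day 14.

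The cells without *Chodl* held most of the *Eln*, *Sfrp4*, *Cyp26a1*, *Npnt*, and *Wnt16* at day 10. *Eln* was at 44.5 CPM in *Chodl* cells, 729.9 CPM in *Angptl7* cells, and 869.7 CPM in cells with neither. *Sfrp4* was at 21.3, 687, and 478 CPM, and *Wnt16* at 5.80, 168, and 120.3 CPM. *Npnt* encodes nephronectin, the relative of *Egfl6*, and stood at 11.6, 107, and 173 CPM. *Penk*, which encodes proenkephalin, was at 77.3, 557, and 432 CPM. *Ntf3* was at 17.4, 97.2, and 49.3 CPM. At day 14 *Wnt16* was again lowest in *Chodl* cells, at 26.6, 228, and 30.1 CPM. Others were not: *Eln* was at 361, 421, and 67.8 CPM, and *Penk* at 685, 678, and 125 CPM. With 20, 19, and 40 cells, and 12 of the *Chodl* cells also holding *Angptl7*, the day 14 subsets rest on few cells.

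**Figure D5:**
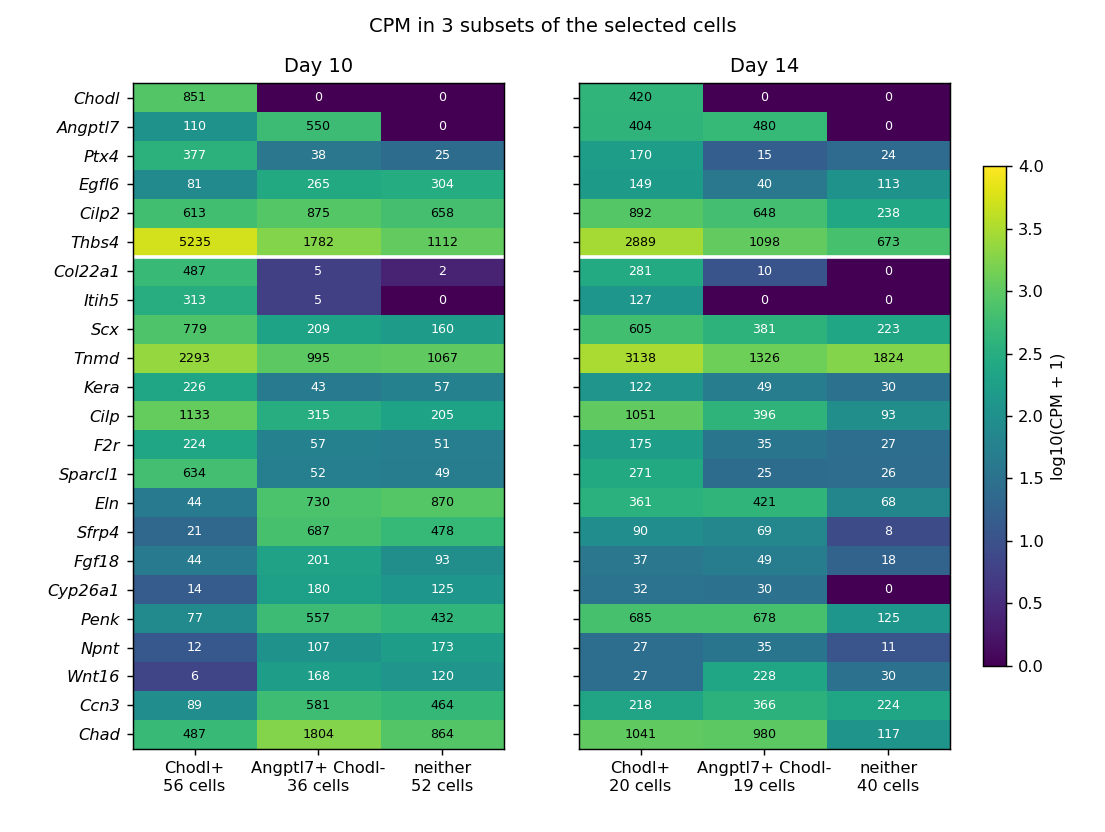
CPM of 23 genes in 3 subsets of the selected cells, those with *Chodl*, those with *Angptl7* and no *Chodl*, and those with neither; color is log10(CPM + 1) and the printed values are CPM, with the genes of the choice above the white line. *Col22a1* and *Itih5* stood at 487 and 313 CPM in *Chodl* cells at day 10 and at 5 CPM or less in the other subsets, whereas *Eln*, *Sfrp4*, and *Wnt16* were low in *Chodl* cells.

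Selected cells also varied in *Aspn*. At least 20 *Aspn* UMIs per 10000 were seen in 92 of 144 cells at day 10, and at day 14 in 63 of 79. *Chodl* cells reached that level in 27 of 56 cells at day 10, *Angptl7* cells in 24 of 36, and cells with neither in 41 of 52. With the other selected cells left out, 675 genes were at least 2-fold higher and 319 lower at day 10, and 283 and 167 at day 14.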

How the data were processed

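Callus cells of 3 droplet libraries, 1 per day, were analyzed. The authors deposited whole UMI counts per gene (32285 genes) and cell, without normalization. The matrix headers name Cell Ranger 3.1.0, the submitters' processing notes Cell Ranger 3.0 and mm10, and the study's methods a further version, so the version is uncertain. The limits on genes, mitochondrial and hemoglobin UMIs are those of the study, and *Ptprc*-positive cells were left out. Total depth was 144103160 UMIs at day 10 and 195661880 at day 14.

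The 6 genes of the choice, the 328 genes in 29 lists, and the comparison group were chosen with earlier results of these data known. Counts were summed over cells within a library. CPM have exact Poisson intervals, log2 ratios exact binomial intervals, and shares of cells Clopper-Pearson intervals. Genes with a mean of at least 10 CPM over both groups were counted when at least 2-fold apart. Named genes are the choice's genes, list genes, and, at a mean of at least 50 CPM, the 15 highest and 10 lowest ratios of day 10, except where the text says otherwise. Genes ranked between subsets of the selected cells followed the same 50 CPM minimum, with 10 per side. The steps were tested on simulated data.

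No test was run, since cells of 1 library are not replicates. Positions for 32235 of the 32285 gene identifiers came from GENCODE M21 (GRCm38), and promoters from RefSeq (GRCm38.p6; 7 of 10 genes looked for matched). Python 3.11.15, numpy 2.4.6, scipy 1.17.1, pandas 2.3.3, and matplotlib 3.10.9 were used. Alternatives were other rule thresholds, genes left out of the rule, *Aspn* and *Col2a1* limits, thinning, other comparison cells, weighting, centering, and other floors.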

Additional observations from a re-analysis of the deposited data

Results flagged for a closer look

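The day 7 library entered no comparison, and 4 of its 447 cells without *Ptprc* (0.895%; 95% CI, 0.244% to 2.28%) met the same choice, a signal in data that no comparison used. Each of the 4 cells held 5 or 6 of the 6 genes, and all 4 carried *Chodl* and *Angptl7* together, unlike most selected cells of the later days. *Chodl* was at 670.3 CPM (95% CI, 474 to 920.0), *Angptl7* at 1764 CPM (95% CI, 1435 to 2145), and *Thbs4* at 4568 CPM (95% CI, 4029 to 5159.9). *Tnmd* was at 4427 CPM (95% CI, 3896 to 5010.1), against 12.5 CPM in the other 443 cells, and *Postn* at 7055 CPM (95% CI, 6381 to 7782), against 1110.0 CPM. These 443 cells are all other cells without *Ptprc*, whereas the comparison cells of the later days were *Aspn*-high, and day 7 had only 10 such cells. The contrasts of day 7, that of *Postn* included, are therefore not to be set beside the ratios of the later days. *Col22a1* had no UMI in the 4 cells. *Col2a1* was at 159 CPM, against 20900.1 CPM in the other cells. The difference from day 10 and day 14 was not tested, and 4 cells of 1 library give no spread between animals.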

How the results depend on the processing

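The limits are those of 1 library a day: cells share their animals, handling, and sequencing, and 144 and 79 selected cells leave low genes at few UMIs. No paired analysis was possible because each day has 1 library and the results come from no test. The cause of each difference below was not tested, beyond what the smaller or larger cell number sets.

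Asking for 2 of the 6 genes gave 420 selected cells at day 10 and 581 at day 14, with 204 genes higher and 97 lower at day 10, 80 and 36 at day 14, and a median log2 ratio of the tendon matrix genes of 0.40 and 0.24. Asking for 4 genes gave 72 cells at day 10, the same number as leaving *Thbs4* out of the 6, since every selected cell had *Thbs4*, with 864 genes higher, 444 lower, and a median of -0.21. At day 14, 4 genes gave 23 cells, 1048 higher, 658 lower, and a median of 0.18, and leaving out *Thbs4* gave 24 cells, 1015 higher, 626 lower, and 0.16. Leaving out *Egfl6* gave 49 cells at day 14, with 443 higher and 265 lower. Asking for *Aspn* too gave 92 cells at day 10 and medians of 0.010 and 0.31. With no upper limit on genes the day 10 median was 0.42, and 64 genes were lower at day 14. Without *Col2a1*-high cells the day 14 median was 0.30. After thinning, 526 genes were lower at day 10 with a median of -0.18, and at day 14, 39 cells gave 1059 higher, 738 lower, and a median of 0.18. A higher *Aspn* limit for comparison cells gave medians of 0.38 and 0.63. With all other cells as comparison, 1017 genes were higher at day 10, 487 were higher and 329 lower at day 14, and the medians were 0.88 and 1.13. Weighting cells equally gave medians of -0.10 and 0.29 and 367 genes higher at day 14. A floor of 20 CPM gave 415 higher and 177 lower at day 10 and 124 and 60 at day 14, and a floor of 5 CPM 378 and 233 at day 14. Against *Scx*-positive cells, chosen after seeing the data, the day 10 median was 0.50.

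Of 77 named genes past 2-fold at day 10, 71 kept their direction in all 15 alternatives and 40 stayed past 2-fold. Of 61 at day 14, 47 kept it and 18 stayed past 2-fold. The named genes include the genes of the choice and the most extreme day 10 ratios, so the choice set part of these directions. Another floor cannot alter a gene's ratio, and centering shifts all ratios by the same small amount. At day 10, asking for 4 genes and leaving out *Thbs4* gave the same cells. The counts are therefore no independent check of the directions. With 2 genes asked for, the day 10 log2 ratios of *Sox9*, *Acan*, and *Cdk1* were 0.075, 0.54, and 0.14, and the day 14 ratios were -0.57 for *Sfrp4*, 0.26 for *Sbsn*, -0.053 for *Prg4*, -0.33 for *Npnt*, -0.15 for *Col8a1*, -0.092 for *Fbln1*, -0.19 for *Gas6*, -0.39 for *Dmp1*, 2.57 for *S100a8*, 2.25 for *S100a9*, and -0.12 for *Ccnb2*. Against all other cells, *Tnc*, *Ly6a*, and *Angptl2* were at 0.25, 0.020, and 0.15 at day 10, and *Chad*, *Vcan*, *Dmp1*, and *Ifitm5* at -0.24, 0.21, -1.49, and -1.52 at day 14. *Ifitm5* was at -0.40 with 4 genes, -0.46 without *Thbs4*, and -0.63 after thinning, *Dmp1* at -1.39 with *Aspn* asked for, and *Ccnb2* at -0.14 with no upper limit, -0.10 without *Col2a1*-high cells, and -0.91 after thinning, all at day 14.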

Other observations

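The following 5 genes belong to no list used above and were picked singly because their values were high, so they stand for no group. *Cnr1*, the cannabinoid receptor gene, was at 81.2 against 1.61 CPM at day 10 with a log2 ratio of 5.66 (95% CI, 5.10 to 6.25), in 52 of 144 selected cells, and at 21.8 against 1.49 CPM at day 14. *Vipr2*, a receptor gene for vasoactive intestinal peptide, was at 66.1 against 2.18 CPM at day 10, in 60 cells, and at 22.8 against 0.609 CPM at day 14. *Tac1*, which encodes the precursor of substance P, was at 32.8 against 1.23 CPM and 18 against 0.361 CPM, in 18 and 7 cells. *Ntrk2*, the receptor gene for the product of *Bdnf*, was at 28.3 against 1.23 CPM at day 10, in 29 cells, and 1 cell held 26.7% of its UMIs. *Penk* was at 349.6 against 104 CPM at day 10 and 331 against 106 CPM at day 14, in 70 and 42 cells. Levels of Schwann cell genes are given above.

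A further 3 genes were also chosen after their values were seen. *Gm525* had the largest finite ratio at day 10, at 83.1 against 0.0474 CPM, in 13 selected cells with 34.8% of its UMIs in 1 cell, and was at 21.8 against 0.0676 CPM at day 14. *Espn*, which encodes an actin-bundling protein, was at 30.9 against 0.379 CPM at day 10, in 25 cells. *Meox1*, a homeobox gene of somites, was at 47.9 against 1.71 CPM at day 10 and 14.2 against 0.902 CPM at day 14, and at 128 CPM in *Chodl* cells against 9.34 CPM in the other selected cells at day 10.

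In the limb position list, 1 of 11 genes above the floor was at least 2-fold higher on each day and none lower. Over all genes the shares were 7.97% higher and 3.39% lower at day 10, and 2.73% and 1.58% at day 14, so 1 of 11 at day 10 lies near the share of all genes, and the counts that follow are to be read beside these. The gene was *Pitx1*, a hindlimb gene, at 37.2 against 15.7 CPM at day 10 and 40.8 against 13.7 CPM at day 14. Among matrix proteases and inhibitors, *Timp3* was at 556 against 122 CPM and 311 against 126 CPM, and 3 of 12 genes were higher and 2 lower at day 10, and 1 higher and 2 lower at day 14. In the FGF and PDGF list, 4 of 9 genes were higher and 1 lower at day 10, and 2 of 8 higher at day 14. Among chemokines and cytokines, 3 of 8 were higher and 2 lower at day 10, and 1 of 6 was higher at day 14. Of the relatives of the 6 genes, *Npnt* (103 against 9.71 CPM and 18 against 6.90 CPM) and *Angptl1* (291 against 96.6 CPM and 389 against 184 CPM) were higher on both days, except that *Npnt* was at a log2 ratio of -0.33 at day 14 with 2 of the 6 genes asked for. *Ptx3* and *Angptl2* were lower at day 10, *Angptl2* at 0.15 against all other cells, and none was lower at day 14. Of the osteoblast list, 2 of 6 genes were lower at day 10, and 2 of 8 were higher and 1 lower at day 14, where 1 cell held 94.4% of the *Dmp1* UMIs and 93.5% of the *Ifitm5* UMIs, and against all other cells their log2 ratios were -1.49 and -1.52. The chondrocyte list had 1 higher and 1 lower of 10 at day 10 and 1 higher of 9 at day 14, and the hypertrophic list 1 higher and 1 lower of 3 and 1 higher of 4. The fibroblast list that includes *Dpt* and *Pi16* had 1 higher and 1 lower of 4 at day 10 and neither at day 14. Of the adipogenic list, *Lpl* was at 145 against 66.8 CPM at day 10, the 1 gene above the floor, and of the perineurial list, 2 genes were above the floor on each day and neither was past 2-fold. Summed levels in selected and other *Aspn*-high cells at day 10 were 158 and 81.8 CPM for the adipogenic list and 56.1 and 45.1 CPM for the perineurial list.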
